A study of Mus musculus with 40 samples.

Results

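Genes that mark the projection neurons of the striatum were followed through 40 RNA-seq libraries of mouse forebrain. The 9 genes were Tac1, Penk, Pdyn, Drd1, Drd2, Adora2a, Ppp1r1b, Rgs9 and Pde10a, chosen by symbol, and they are 9 of the 41388 genes in the count files. All 9 passed the filter on low counts in every fit, among 17728 genes that passed it in the fit of all 40 libraries.

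The study compared mRNA on ribosomes of whole cells and on those near synapses in 2 neuron classes. RBP4-TRAP mice carried Tg(RBP4-cre)KL100Gsat/Mmcd and VGAT-TRAP mice carried a Cre knocked into Slc32a1, the gene of the vesicular GABA transporter VGAT. Both also carried the same Cre-dependent reporter, which expresses a ribosomal protein fused to GFP (EGFP/Rpl10a), so that no group here lacked it. The RBP4 driver is used for pyramidal cells of a deep cortical layer, and the VGAT driver acts in GABAergic neurons of any kind, cortical or striatal. All mice were 21 d old, and each replicate was a pool of forebrains of both sexes, so that single animals cannot be told apart. From each of 5 pools per line 4 fractions were made: whole-cell homogenate (WCH), ribosomes captured from it through the GFP tag (TRAP), a synaptoneurosome fraction enriched in synaptic terminals (SNF), and ribosomes captured from that fraction (SynapTRAP, ST). The labels give the tissue as cortex, whereas the methods describe a forebrain dissection.

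Medium spiny neurons are the GABAergic output cells of the striatum. Those of the direct pathway carry the D1 dopamine receptor (Drd1) and the peptide precursors of substance P (Tac1) and dynorphin (Pdyn), and those of the indirect pathway carry the D2 receptor (Drd2), an adenosine receptor (Adora2a) and proenkephalin (Penk). Both share DARPP-32 (Ppp1r1b), an inhibitor of protein phosphatase, Rgs9, which speeds the turnover of G protein signals, and Pde10a, a phosphodiesterase of cyclic nucleotides. None of the genes belongs to the striatum alone: Penk, Tac1 and Pdyn are also made by some cortical interneurons, and Drd1 by some deep cortical neurons. In bulk RNA, fewer cells of a type and less RNA per cell cannot be told apart.

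The 3 precursor genes are shown by a stretch that encodes the active core of their peptides. Each line holds 30 bases of the coding strand from GENCODE M21 (GRCm38), with the 15 bases of the peptide core in capitals.

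Tac1, substance P core, chr6:7556741-7556770, plus strand, exon 3 of 7: cctcagcagTTCTTTGGATTAATGggcaag

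Penk, Met-enkephalin, chr4:4134328-4134357, minus strand, exon 2 of 2: gccaagaagTACGGAGGCTTCATGaaacgg

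Pdyn, Leu-enkephalin core of the dynorphins, chr2:129688232-129688261, minus strand, exon 4 of 4: gccaaacgcTATGGCGGCTTTTTGcgcaaa

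The coding sequence of Penk holds 6 in-frame copies of the Met-enkephalin core and that of Pdyn 3 copies of the Leu-enkephalin core, against 1 copy of the substance P core in Tac1. The Pdyn stretch shown is 1 of its 3 copies. It was chosen by the core alone and was not assigned to a particular peptide of the precursor. Its label does not place it within a dynorphin. The count files place Tac1 at chr6:7554879-7565834, Penk at chr4:4133531-4138819 and Pdyn at chr2:129686565-129699844. The receptors lie at chr13:54051186-54055658 (Drd1), chr9:49340662-49407214 (Drd2) and chr10:75316943-75334788 (Adora2a). The signalling genes lie at chr11:98348404-98357796 (Ppp1r1b), chr11:109225355-109298129 (Rgs9) and chr17:8525372-8986648 (Pde10a). The files name no build; these spans equal those of GENCODE M21 on GRCm38 except at the ends of Drd1, Drd2 and Adora2a.

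Each library held between 14259535 and 22037703 counts. Levels are given as cpm, counts scaled to the library size, which was taken after mitochondrial, rRNA and tRNA genes were left out, and 1 count was worth between 0.0455 and 0.112 cpm. Fold changes are on the log2 scale with their standard error, from edgeR's quasi-likelihood test, and a gene was called at an adjusted p of at most 0.05 over all genes tested. Replicate 3 stood apart in SNF of both lines: mitochondrial genes took 40.2% (RBP4) and 41.9% (VGAT) of its counts, against 11.2% to 19.4% in the other 8 SNF libraries. In RBP4 ST, replicate 4 had 49.9 cpm of Slc32a1, against 10.8 to 19.7 cpm in the other 4. It was the highest library for 2 of the 9 genes and the lowest for none, and comparisons were also made without it.

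**Figure D1:**
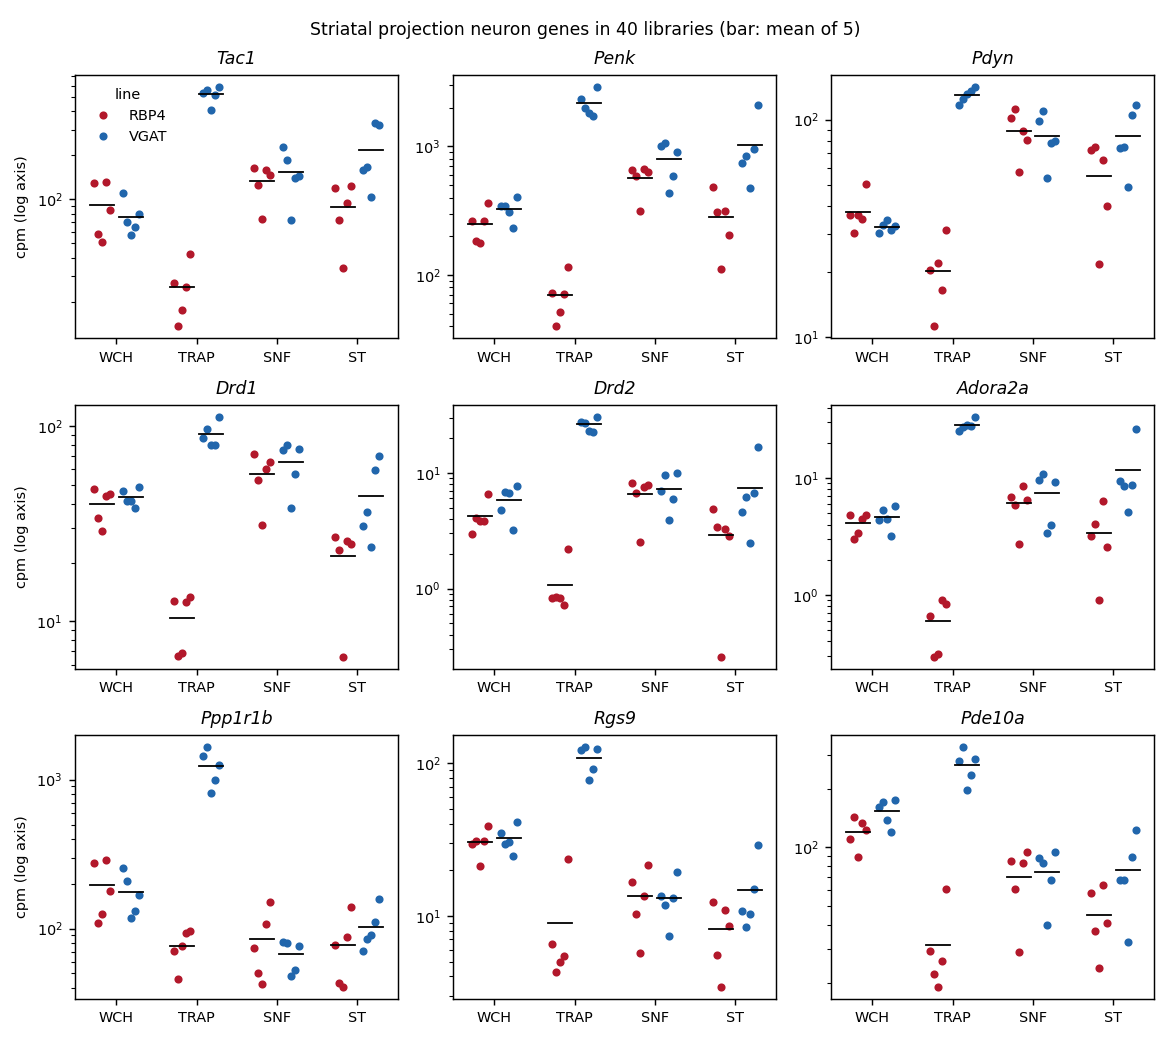
Level of each of the 9 genes in 40 libraries, in cpm on a log axis, by fraction (horizontal) and line (RBP4 red, VGAT blue). Points are the 5 pools of a group and bars their mean; in TRAP the 5 VGAT libraries lie above the 5 RBP4 libraries in all 9 panels, and in WCH the lines overlap in all 9.

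In homogenate RNA the 5 libraries of each line overlapped for each of the 9 genes. Penk had 176, 183, 261, 264 and 361 cpm in the 5 RBP4 pools and 232, 306, 342, 345 and 404.5 cpm in the 5 VGAT pools. Ppp1r1b had between 109 and 288 cpm in the RBP4 pools and between 118 and 255 cpm in the VGAT pools. Differences, given as RBP4 over VGAT, ran from -0.45 ± 0.42 (Drd2) to 0.26 ± 0.33 (Tac1) on the log2 scale. By edgeR none was called and none had an unadjusted p under 0.05, beside 0.00592% of 16898 genes called in each direction. DESeq2 called none either.

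Per kb of gene model, Penk had the highest mean level of the 9 in WCH of the VGAT line, 200 ± 38.6 cpm per kb (SD, n = 5). Ppp1r1b followed with 60.2 ± 19.4 and Tac1 with 22.4 ± 6.06 cpm per kb, while Drd1, Pde10a and Pdyn lay between 11.2 and 12.2 cpm per kb. Rgs9 had 5.04, Drd2 3.76 and Adora2a 1.82 cpm per kb, the lowest of the 9. The paper reports a heavy bias of its reads toward the end of the transcript where priming took place. Division by the full length may therefore understate long genes, and this order is only a rough guide to their levels. For Drd2 the gene model of the count files ends at 49407214, before the end of the gene in GENCODE M21 at 49408177. Reads beyond it were not counted for Drd2, and with this bias its level may be understated. Part of the exon bases of Penk (14.3%) and Ppp1r1b (15.7%) overlap another gene on the opposite strand, A830012C17Rik and 1700003D09Rik, so that their counts are uncertain to that extent.

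TRAP of the VGAT line was the group with the highest mean of all 8 for each of the 9 genes. Penk had 1733, 1820, 1992, 2349 and 2924 cpm there, and Ppp1r1b 819.5, 998, 1258, 1436 and 1659 cpm. Tac1 had between 407 and 591 cpm. Each of the 9 genes was above its WCH level in TRAP in all 5 pools, and the libraries of these fractions did not overlap for any of them.

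All 9 genes rose in VGAT TRAP over WCH, where 21% of 16990 genes were called higher and 41.8% lower. The genes differed in how far they rose. The largest changes were those of Ppp1r1b (2.81 ± 0.26, or 7.01-fold), Tac1 (2.78 ± 0.30) and Penk (2.73 ± 0.32). Adora2a (2.62 ± 0.35), Drd2 (2.17 ± 0.35) and Pdyn (2.01 ± 0.19) followed.

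Drd1 (1.08 ± 0.23) and Pde10a (0.79 ± 0.25, adjusted p = 0.00953) had the smallest changes, with Rgs9 (1.75 ± 0.27) between. Drd1 encodes the receptor that marks the direct pathway, and Drd2 and Adora2a those of the indirect pathway. The median over the 9 was 2.17, beside a median of -0.31 over all genes tested. With TMM scaling 29.4% of genes were called higher and 32.5% lower, and again 9 of the 9 rose.

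Per kb, and with the same limit from the read bias, the order in VGAT TRAP was led by Penk with 1324 ± 298 cpm per kb. Ppp1r1b followed with 421 ± 114 and Tac1 with 154 ± 20.8 cpm per kb. Pdyn had 45.1 ± 3.29 cpm per kb. The others lay between 11.2 (Adora2a) and 25.8 (Drd1) cpm per kb, and Rgs9 (17.0 ± 3.53) and Drd2 (16.9 ± 2.11) did not differ beyond their spread.

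In the RBP4 line the same capture gave the opposite picture, and the 9 genes fell in TRAP against WCH. Penk had 39.7, 51.4, 70.9, 71.7 and 116 cpm in RBP4 TRAP and Adora2a only 0.297, 0.311, 0.656, 0.840 and 0.910 cpm. Each of the 9 genes was lower in TRAP than in WCH in 5 of 5 pools, and for 7 of them the libraries did not overlap; Pdyn and Rgs9 overlapped. By edgeR 9 of 9 were called lower and none higher, where 31.5% of 17043 genes were called lower and 8.37% higher. With TMM scaling, where 22.4% were called lower and 19.3% higher, 8 of 9 were called lower.

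Adora2a fell by 2.75 ± 0.43, the largest of these changes. Drd2 (-1.97 ± 0.48), Drd1 (-1.93 ± 0.31), Pde10a (-1.93 ± 0.32), Tac1 (-1.86 ± 0.35) and Penk (-1.83 ± 0.33) were close to each other, followed by Rgs9 (-1.76 ± 0.43) and Ppp1r1b (-1.36 ± 0.36). Pdyn fell by 0.90 ± 0.29 (adjusted p = 0.0161), the smallest change, and it was not called with TMM scaling (-0.62, adjusted p = 0.0704), with DESeq2 (-0.63, adjusted p = 0.0631), or without RBP4 pool 1 (-0.91, adjusted p = 0.0528) or pool 4 (-0.86, adjusted p = 0.0691).

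Replicate 5 was the highest RBP4 TRAP library for 8 of the 9 genes. Rgs9 had 23.6 cpm in it against 4.26 to 6.50 cpm in the other 4, and Pde10a 61.2 cpm against 19.1 to 29.3 cpm. The same library had the highest summed levels of 8 pan-GABAergic markers (510 cpm against 110 to 166 cpm), 6 oligodendrocyte markers (5508 cpm against 388 to 928.5 cpm) and 6 astrocyte markers (1650 cpm against 369 to 682 cpm). The part of these markers in the result was not tested. Without that library 9 of 9 genes were still called lower, and Rgs9 fell by 2.52.

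**Figure D2:**
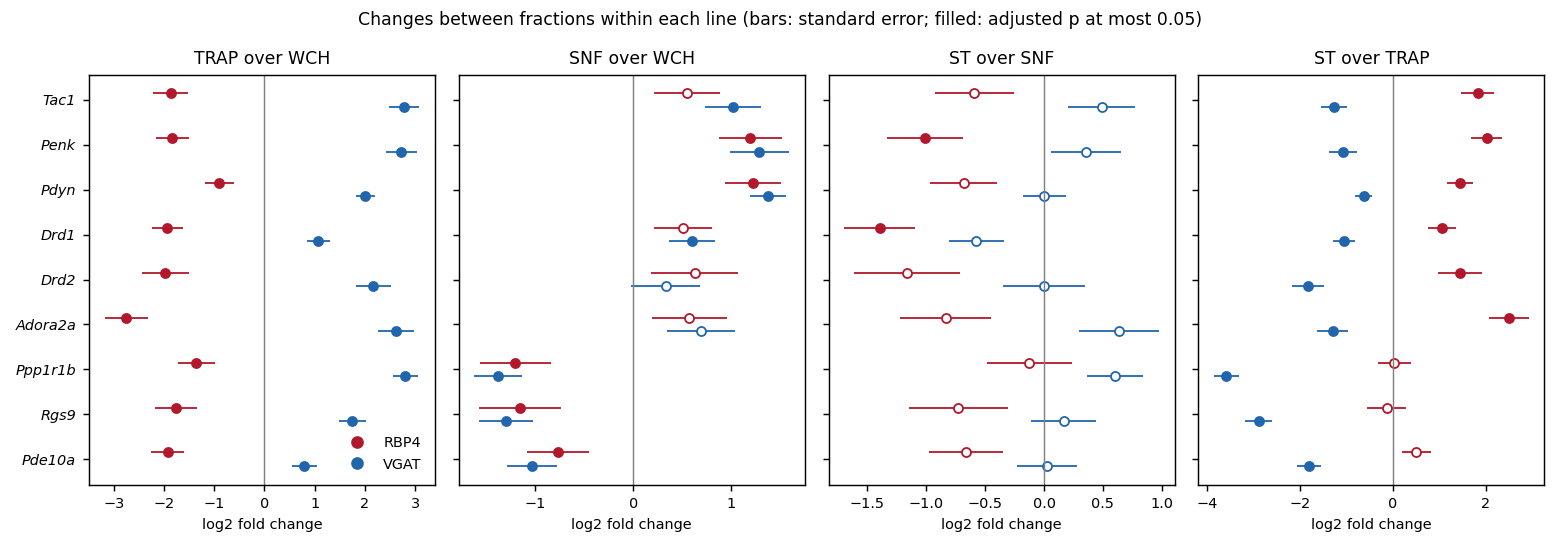
Log2 fold change (horizontal, with its standard error) of each of the 9 genes in 4 comparisons of fractions, for the RBP4 line (red) and the VGAT line (blue). Filled points have an adjusted p of at most 0.05. TRAP over WCH moves apart by line, while SNF over WCH separates Ppp1r1b, Rgs9 and Pde10a, on the left in both lines, from the other 6 genes.

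Between the lines the TRAP libraries differed for all 9 genes, and in none of them did the 5 RBP4 and 5 VGAT values overlap. In RBP4 over VGAT TRAP 15.1% of 16898 genes were called lower and 12.9% higher (13.1% and 14.9% with TMM), and 9 of 9 of these genes were called lower under either scaling. Adora2a fell by 5.54 ± 0.44, from a mean of 28.4 ± 3.05 cpm in VGAT TRAP to 0.603 ± 0.288 cpm in RBP4 TRAP (SD, n = 5). Penk (-4.95 ± 0.39), Drd2 (-4.60 ± 0.49) and Tac1 (-4.38 ± 0.38) came next.

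Pdyn had the smallest line difference, -2.69 ± 0.27, from 130 ± 9.50 cpm in VGAT TRAP to 20.2 ± 7.37 cpm in RBP4 TRAP. Pde10a (-3.08 ± 0.31) and Drd1 (-3.13 ± 0.30) were near it, with Rgs9 (-3.60 ± 0.40) and Ppp1r1b (-4.01 ± 0.35) between. The genes of the indirect pathway had differences of -4.60 to -5.54, and those of the direct pathway -2.69 to -4.38. This order describes the genes and was not tested.

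From WCH to SNF the 9 genes moved in both directions. In the VGAT line the 3 precursors of secreted peptides rose, and the 3 genes of intracellular signalling proteins fell. In VGAT SNF Pdyn had 54.0, 77.8, 79.6, 98.2 and 109 cpm, all above its 30.3 to 34.4 cpm in WCH. Ppp1r1b had 48.0, 53.2, 76.2, 80.4 and 80.9 cpm, all below its 118 to 255 cpm in WCH.

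In the VGAT line 4 of the 9 genes were called higher and 3 lower, where 19.3% of genes were called higher and 45.2% lower. The count of 3 lower was thus no excess over all genes. Pdyn rose by 1.38 ± 0.19, Penk by 1.29 ± 0.30, Tac1 by 1.02 ± 0.29 and Drd1 by 0.60 ± 0.23 (adjusted p = 0.0273). Ppp1r1b fell by 1.38 ± 0.24, Rgs9 by 1.30 ± 0.28 and Pde10a by 1.03 ± 0.26, each in 5 of 5 pools and without overlap with WCH. Relative to the median of -0.52 over all genes tested, these 3 lay at -0.86, -0.78 and -0.51. Drd2 (0.33 ± 0.35) and Adora2a (0.69 ± 0.35, adjusted p = 0.0872) were not called.

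Adora2a and Drd1 lay near the threshold. Adora2a was called with the pool as a block (0.65, adjusted p = 0.0483) and without VGAT SNF replicate 3 (0.86, adjusted p = 0.0331). Drd1 was not called without VGAT pool 1 (adjusted p = 0.0756), pool 2 (0.50, adjusted p = 0.127) or pool 4 (adjusted p = 0.0624). With TMM scaling 24.6% of genes were called higher and 27.9% lower, and 5 of the 9 were called higher and 3 lower.

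In the RBP4 line Pdyn and Penk again had the highest values and Ppp1r1b and Rgs9 the lowest. Pdyn had 57.2, 80.7, 89.0, 102 and 112 cpm in RBP4 SNF and rose by 1.23 ± 0.29, and Penk rose by 1.20 ± 0.32. Ppp1r1b fell by 1.21 ± 0.36, Rgs9 by 1.16 ± 0.42 and Pde10a by 0.77 ± 0.31 (adjusted p = 0.0464), and each was lower in SNF in 5 of 5 pools. Thus 2 of 9 were called higher and 3 lower, where 13.4% of genes were called higher and 36.1% lower, so that 3 lower was no excess. Relative to the median of -0.50 over all genes tested, Ppp1r1b lay at -0.71, Rgs9 at -0.66 and Pde10a at -0.27.

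Tac1 (0.55 ± 0.34), Drd1 (0.51 ± 0.30), Drd2 (0.63 ± 0.45) and Adora2a (0.58 ± 0.39) were not called in the RBP4 line. With the pool as a block 4 genes were called higher, as Tac1 (0.59, adjusted p = 0.0190) and Drd1 (0.47, adjusted p = 0.0409) joined Pdyn and Penk, and 3 were called lower. The calls of the genes that fell depended on the scaling: with TMM, where 19.3% of genes were called higher and 17.9% lower, Ppp1r1b (-0.91, adjusted p = 0.0313) was called lower but Rgs9 (-0.86, adjusted p = 0.0802) and Pde10a (-0.46, adjusted p = 0.206) were not. Without RBP4 SNF replicate 3 the same 2 genes missed the threshold (Rgs9 -0.97, adjusted p = 0.0683; Pde10a -0.57, adjusted p = 0.121). Without RBP4 pool 1 none of the 3 was called.

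In SNF no difference between the lines was detected. RBP4 over VGAT differences ran from -0.48 ± 0.32 (Penk) to 0.32 ± 0.32 (Ppp1r1b), and no gene of the 9 was called or had an unadjusted p under 0.05, beside 0.00564% of 17728 genes called higher and 0.0113% lower. The SNF libraries hold RNA of all cells of the fraction, since no ribosomes were captured from them.

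Genes of related functions were followed from WCH to SNF as well, and those named here were chosen after their values were seen. All 8 genes of peptide processing rose in both lines, with medians of 1.55 in VGAT and 1.35 in RBP4, beside medians of -0.52 and -0.50 over all genes tested. Cpe, the carboxypeptidase that trims prohormones, rose by 1.84 and Chgb, a granin of the secretory granule, by 1.72 in the VGAT line. Of 8 genes of other RGS proteins and partners of Rgs9, 7 fell in each line and none rose. Gnb5, the G protein subunit that pairs with Rgs9, fell by 1.35 in VGAT and by 1.01 in RBP4.

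Of 8 receptors of the same families tested, 6 rose in VGAT SNF (median 0.81) and 2 in RBP4 SNF (median 0.64), and none fell. Adora2b rose by 1.4 and Tacr3, a tachykinin receptor, by 1.26 in the VGAT line. Striatal transcription factors went the other way, with 6 of 8 lower in each line and none higher: Foxp2 fell by 1.29 and Rarb by 1.20 in VGAT SNF. Shared striatal signalling genes were split, 5 of 16 higher and 8 lower in VGAT SNF. Adcy5 (0.80), Scn4b (0.78) and Gng7 (0.40) were among those that rose, and Arpp21 (-1.16) and Pde1b (-1.04) among those that fell. These counts stand beside 19.3% of all genes called higher and 45.2% lower in VGAT SNF, and 13.4% and 36.1% in RBP4 SNF.

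Markers of glia moved with the SNF fraction as well. In VGAT SNF 6 of 6 astrocyte markers (median 1.52), 5 of 6 oligodendrocyte markers (median 1.10) and 6 of 6 microglia markers (median 1.52) rose. The summed level of the astrocyte markers lay between 8522 and 24494 cpm there and between 2200 and 4434 cpm in WCH, and none of them was at 0 throughout a group. Of 8 pan-GABAergic markers 2 rose, among them Slc32a1 (1.43), and 6 fell, among them Gad1 (-1.12), with a median of -1.02. The part of these markers in the result was not tested.

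**Figure D3:**
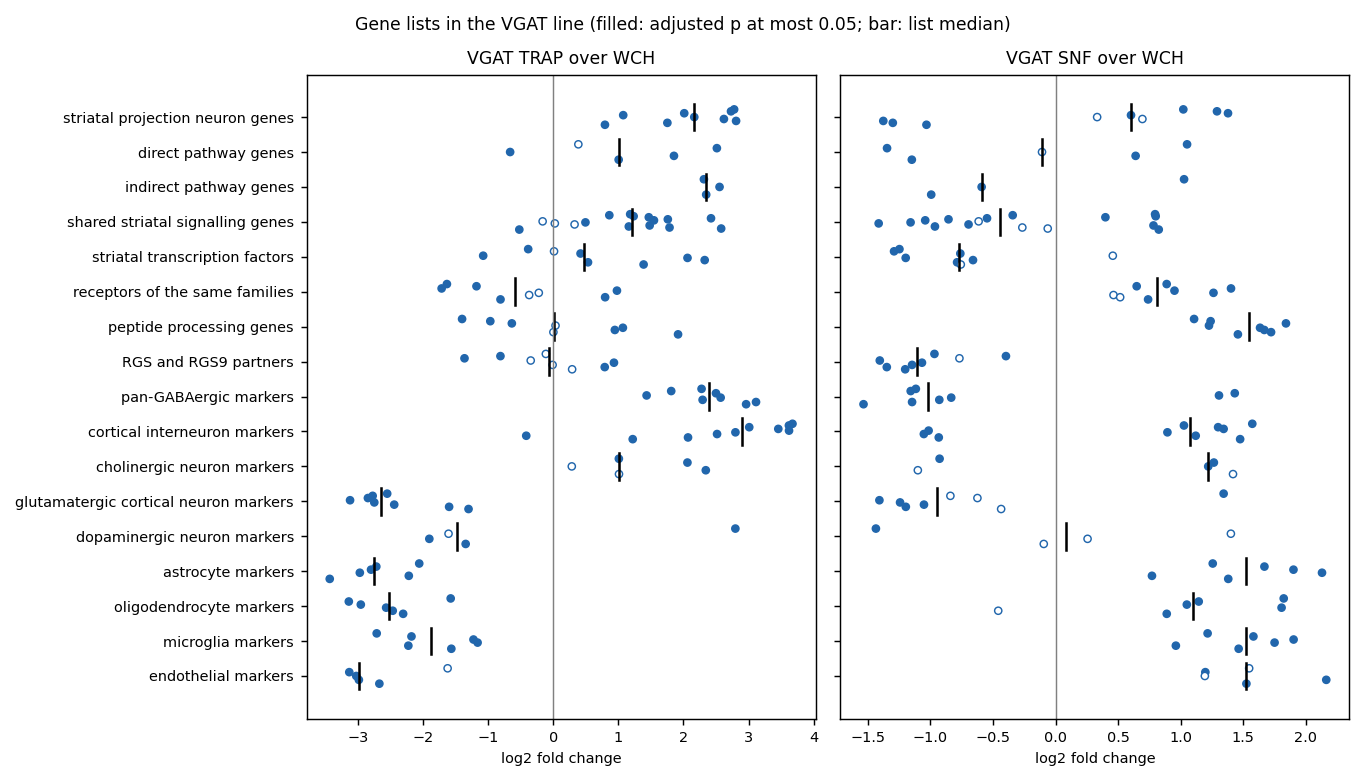
Log2 fold change of the genes of 17 lists in the VGAT line, TRAP over WCH on the left and SNF over WCH on the right, with 1 point per gene and a bar at the list's median. Filled points have an adjusted p of at most 0.05. Lists of GABAergic cells lie to the right of 0 in TRAP and glial lists to the left, and in SNF the 8 peptide processing genes all lie to the right.

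In TRAP of the VGAT line other genes of medium spiny neurons moved unequally. Of 5 further direct pathway genes 3 rose and 1 fell, with a median of 1.005. Isl1, a transcription factor, rose by 2.51 and Slc35d3, a transporter, by 1.85, whereas Eya1 fell by 0.66 and Chrm4, the M4 muscarinic receptor, was not called (0.39). All 3 indirect pathway genes tested rose, with a median of 2.35: the transcription factors Sp9 (2.55) and Six3 (2.35) and the receptor Gpr6 (2.31).

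Shared striatal signalling genes rose in 12 of 16 cases, with a median of 1.21, and Syndig1l (2.58) and Rasgrp2 (2.42) had the smallest p-values. Ano3, a membrane protein, fell by 0.52. Of 8 striatal transcription factors 5 rose, led by the retinoid receptors Rxrg (2.33) and Rarb (2.06), and 2 fell, Ikzf1 by 1.07 and Foxp1 by 0.38. The median of that list was 0.48.

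Receptors of the same families did not follow the 9 genes, with 2 of 8 higher and 4 lower and a median of -0.59. Tacr1, the receptor of substance P, rose by 0.98 and Oprd1, the delta opioid receptor, by 0.80. Oprk1, the kappa opioid receptor that binds dynorphin, fell by 0.81, Drd5 by 1.63, Adora1 by 1.18 and Adora2b by 1.71. Oprm1 (-0.37) and Tacr3 (-0.22) were not called.

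Of 8 peptide processing genes 3 rose in VGAT TRAP and 3 fell, with a median of 0.02: Pcsk1n rose by 1.92, Scg2 by 1.07 and Chga by 0.95, while the prohormone convertases Pcsk1 and Pcsk2 fell by 1.4 and 0.97 and Cpe by 0.64. The RGS list had 2 genes higher, Rgs8 (0.93) and Gnb5 (0.79), and 2 lower, Rgs11 (-1.36) and Rgs6 (-0.81), with a median of -0.06. Neither list shared the direction of the precursor genes or of Rgs9 in that capture.

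Other cell types that the VGAT capture could hold were measured by their own markers. All 8 pan-GABAergic markers rose (median 2.40), among them Dlx1 (2.57) and Slc32a1 (2.50). So did 9 of 10 cortical interneuron markers (median 2.90), Lhx6 (2.52) and Cort (3.62) among them, while Cck, a peptide that many pyramidal cells make too, fell by 0.41. Of 5 cholinergic markers 3 rose (median 1.01), with Slc18a3 at 2.06 and Lhx8 at 2.34. Of 4 dopaminergic markers (median -1.48) Th rose (2.80) while Slc18a2 (-1.90) and Ddc (-1.34) fell.

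Markers of glutamatergic neurons, glia and endothelial cells were mostly lower in that capture. The 8 glutamatergic markers fell (median -2.65), with Etv1 at -1.60 and Neurod6 at -3.12. So did 6 of 6 astrocyte markers (median -2.76, Gja1 -3.43 and Aldh1l1 -2.22) and 6 of 6 oligodendrocyte markers (median -2.51, Cnp -2.46 and Mog -2.95). Of the microglia markers 6 of 6 fell (median -1.87, P2ry12 -2.22 and Cx3cr1 -2.71), and of the endothelial markers 4 of 5 (median -2.98, Pecam1 -3.13 and Cdh5 -2.98).

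In RBP4 TRAP the same lists gave other counts. All 8 pan-GABAergic markers fell (median -2.50), and of the glutamatergic markers 3 rose and 1 fell (median 0.46), with Fezf2, a factor of deep-layer pyramidal cells, rising by 1.52. Of the further striatal genes 3 of 5 of the direct pathway, 2 of 3 of the indirect pathway and 9 of 16 of shared signalling fell, and none rose. Between the lines in TRAP, RBP4 over VGAT, 4 of 5 direct pathway genes, 3 of 3 indirect pathway genes, 12 of 16 shared signalling genes and 7 of 8 striatal transcription factors were called lower and none higher, with medians of -1.87, -5.05, -2.04 and -2.24 beside -4.01 for the 9 genes and -0.01 over all genes tested.

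The striatal genes and the cortical interneuron markers rose in the same libraries, and their parts in the level of genes that both cells make, such as Penk, Tac1 and Pdyn, cannot be told apart here. The summed level of the cortical interneuron markers was 8623 to 10585 cpm in VGAT TRAP and 1090 to 1231 cpm in WCH. That of the 9 striatal genes was 3584 to 5500 cpm and 649 to 989.9 cpm.

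Ribosomes captured from SNF of the VGAT line held less of the 9 genes than those captured from homogenate. In VGAT ST Penk had 476, 739.7, 841, 962 and 2086 cpm, and Adora2a 5.17, 8.61, 8.78, 9.36 and 26.0 cpm. All 9 were lower in ST than in TRAP in 5 of 5 pools, and for 7 of them the libraries did not overlap. All 9 were called lower in VGAT ST than TRAP, where 34% of genes were called lower and 37.5% higher.

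The sizes of that drop differed between the genes. Ppp1r1b fell by 3.58 ± 0.26, and Rgs9 by 2.89 ± 0.28, while Drd2 (-1.84 ± 0.35) and Pde10a (-1.80 ± 0.26) followed. Adora2a (-1.29 ± 0.33), Tac1 (-1.27 ± 0.29), Penk (-1.08 ± 0.30) and Drd1 (-1.05 ± 0.23) were close together. Pdyn fell by 0.63 ± 0.18, the smallest drop of the 9. Glutamatergic markers had a median sum of 1127 cpm in VGAT ST, against 207.9 cpm in VGAT TRAP. Their part in these drops was not tested.

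In the RBP4 line ST was higher than TRAP for 6 of the 9 genes and lower for none, where 26% of genes were called higher and 29.1% lower (28.6% and 26.5% with TMM, again 6 genes). Adora2a rose by 2.49 ± 0.43, Penk by 2.02 ± 0.33, Tac1 by 1.82 ± 0.35, Pdyn by 1.44 ± 0.29, Drd2 by 1.44 ± 0.47 and Drd1 by 1.05 ± 0.30. Ppp1r1b (0.03 ± 0.36) and Rgs9 (-0.13 ± 0.42) were not called and took either sign under other settings. Pde10a (0.50 ± 0.31) was called without RBP4 TRAP replicate 5 (0.89, adjusted p = 0.00998). Drd2 was not called without pool 1 (1.10, adjusted p = 0.109), pool 2 (1.30, adjusted p = 0.0698) or pool 4 (1.28, adjusted p = 0.0767). Markers of other cells were also higher in RBP4 ST than in RBP4 TRAP. Their median sums were 504 against 151 cpm (pan-GABAergic), 6731 against 631 cpm (astrocyte) and 33990 against 918.5 cpm (oligodendrocyte). The part of these markers in the result was not tested.

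Against SNF, its own starting material, VGAT ST gave no call among the 9 genes. By edgeR none of the 9 was called in either direction, with 2 at an unadjusted p under 0.05, where 16.3% of genes were called higher and 11.2% lower; with TMM 11.7% were called higher and 14.6% lower. Ppp1r1b (0.60 ± 0.24, adjusted p = 0.0682) and Drd1 (-0.58 ± 0.23, adjusted p = 0.0692) came closest. With the pool as a block Ppp1r1b was called higher (0.65, adjusted p = 0.0154) and Drd1 lower (-0.61, adjusted p = 0.0196), and DESeq2 called Drd1 lower (-0.74, adjusted p = 0.00579).

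In the RBP4 line the 9 values of ST over SNF were all negative, and 2 were called lower, where 5.46% of genes were called lower and 5.64% higher (5.22% and 6.91% with TMM, and the same count of 2). Drd1 had 6.59, 23.2, 25.0, 25.8 and 27.0 cpm in RBP4 ST, all below its 31.1 to 72.3 cpm in SNF, and fell by 1.395 ± 0.30. Penk fell by 1.01 ± 0.32 (adjusted p = 0.0437). With the pool as a block 5 genes were called lower, as Tac1 (-0.66, adjusted p = 0.0308), Drd2 (-1.21, adjusted p = 0.0396) and Adora2a (-0.89, adjusted p = 0.0415) joined them.

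The call of Penk was lost when any of the 5 RBP4 pools was left out, with adjusted p-values of 0.0505 to 0.167, and without RBP4 ST replicate 3 (-0.81, adjusted p = 0.0992) or replicate 4 (-1.05, adjusted p = 0.0721). Drd1 was called in each of these fits. Drd2 was called without RBP4 SNF replicate 3 (-1.36, adjusted p = 0.0496).

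The study defined candidates for local translation as genes that rise from WCH to SNF and again from SNF to ST. Its somatic candidates are genes that TRAP enriches over WCH and that SNF depletes. When both steps had to be called by edgeR, none of the 9 genes was a local candidate in either line, beside 0.188% (RBP4) and 0.789% (VGAT) of all genes tested. At an unadjusted p under 0.05 in both steps the count was 0 as well. With so few local candidates among all genes, a count of 0 among 9 says little about them. The study lists more local candidates than the 32 (RBP4) and 134 (VGAT) genes called here, and the reason was not tested. In the VGAT line 3 of the 9, Ppp1r1b, Rgs9 and Pde10a, were somatic candidates, beside 12% of genes. All 9 had passed the TRAP step there. Of the 3561 genes that passed it, 2035 were somatic candidates, so that 3 of 9 was no excess. In the RBP4 line 0 of 9 were somatic candidates, beside 3.85% of genes, and none of the 9 passed the TRAP step.

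**Figure D4:**
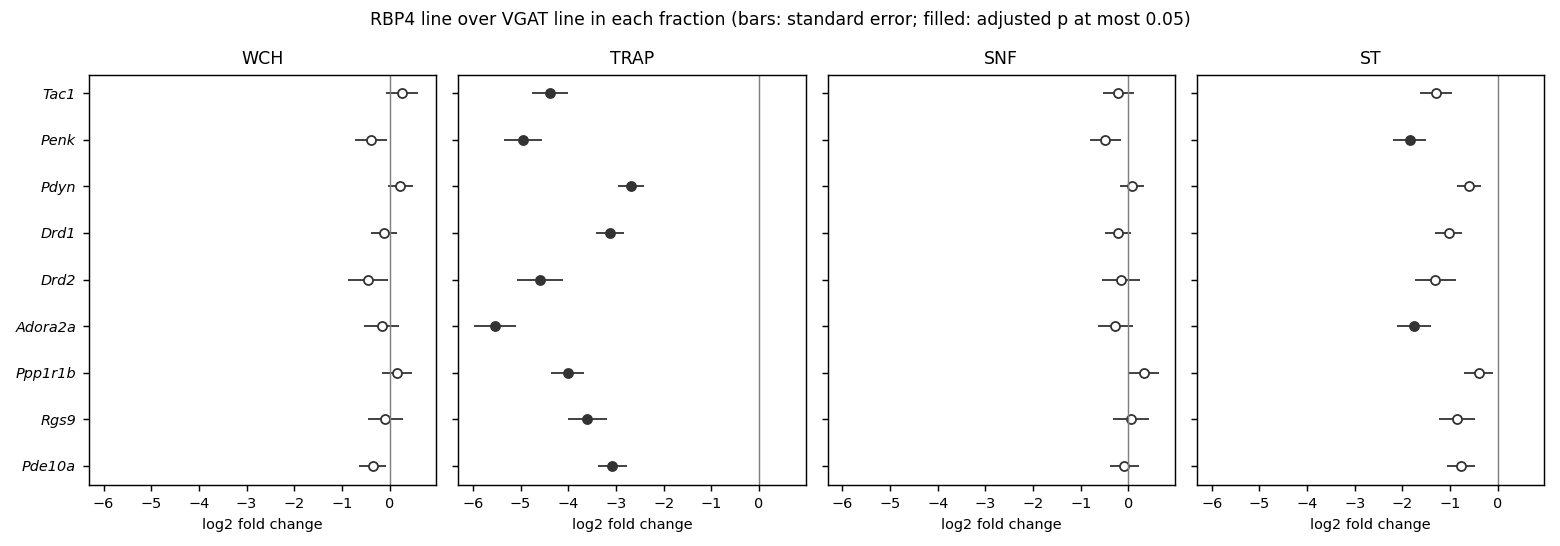
Log2 fold change of RBP4 over VGAT (horizontal, with its standard error) for each of the 9 genes in WCH, TRAP, SNF and ST, on 1 scale. Filled points have an adjusted p of at most 0.05. The 9 genes lie near 0 in WCH and SNF, far to the left in TRAP and between these in ST.

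The line difference in ST was smaller than in TRAP for all 9 genes. In ST, given as RBP4 over VGAT, all 9 values were negative, from -0.40 ± 0.31 (Ppp1r1b) to -1.85 ± 0.34 (Penk), 8 had an unadjusted p under 0.05 and the libraries overlapped for all 9. Penk (adjusted p = 0.00723) and Adora2a (-1.75 ± 0.36, adjusted p = 0.0232) were called lower, 2 of 9, where 0.266% of genes were called lower and 0.0592% higher (0.213% and 0.0888% with TMM).

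Both calls rested in part on VGAT ST replicate 5, the highest library of that group for 8 of the 9 genes. Without it none of the 9 was called (Penk -1.41, adjusted p = 0.0532; Adora2a -1.22, adjusted p = 0.158). VGAT ST replicate 5 also had the highest Sst (2094 cpm) and Slc32a1 (51.35 cpm) of its group. Gad1 was highest in VGAT ST replicate 4 (449.8 cpm, against 361.6 cpm in replicate 5). The part of these markers in the calls was not tested. The call of Adora2a was also lost without RBP4 pool 1, 3 or 5 or VGAT pool 4, with adjusted p-values of 0.0502 to 0.0814. Without RBP4 ST replicate 4 both remained called (Penk -1.89, adjusted p = 0.0117; Adora2a -2.09, adjusted p = 0.00684).

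The difference of the 2 line differences, ST less TRAP, was tested as an interaction. It was positive and called for all 9 genes, where 5.02% of genes were called positive and 5.79% negative. It was largest for Adora2a (3.79 ± 0.54), Ppp1r1b (3.61 ± 0.45) and Drd2 (3.28 ± 0.63), and smallest for Pdyn (2.07 ± 0.36), Drd1 (2.10 ± 0.40) and Pde10a (2.30 ± 0.41). Tac1 (3.09 ± 0.48), Penk (3.10 ± 0.48) and Rgs9 (2.76 ± 0.54) lay between.

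Lists of GABAergic and striatal cells mostly gave the same sign, and glutamatergic markers gave the opposite sign. Lists of related functions did not share it. None of 8 peptide processing genes was called (median -0.07). The RGS list had 1 positive and 1 negative call (median -0.13), and the 8 receptors 2 positive and 1 negative (median 0.38). The interaction was positive and called for 8 of 8 pan-GABAergic markers (median 4.15), 9 of 10 cortical interneuron markers (median 2.67, with Cck negative) and 3 of 3 indirect pathway genes (median 4.62), and negative and called for 7 of 8 glutamatergic markers (median -2.57). In ST, RBP4 over VGAT, 4 of 10 cortical interneuron markers, Sst, Cort, Vip and Npy, and 1 of 8 pan-GABAergic markers, Dlx5, were called lower, as was Slc35d3 (-1.26).

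Oligodendrocyte markers were far higher in the ST libraries than in TRAP, in both lines. Their summed level was 31796 to 44757 cpm in RBP4 ST and 32577 to 54690 cpm in VGAT ST, against 388 to 5508 cpm and 433 to 2413 cpm in TRAP, and none of the 6 was at 0 throughout a group. The part of these markers in the smaller line difference in ST was not tested.

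Replicate 3 stood low for these genes in SNF and ST. It was the lowest library for 9 of 9 genes in RBP4 SNF, 9 of 9 in VGAT SNF, 9 of 9 in RBP4 ST and 7 of 9 in VGAT ST. Its summed level over the 9 genes was 560.2 cpm in RBP4 SNF, against 1017 to 1203 cpm in the other 4 libraries, and 701 cpm in VGAT SNF, against 1003 to 1637 cpm. Beside the mitochondrial share of these SNF libraries, the astrocyte markers summed to 24784 and 24494 cpm in them, against 8522 to 13078 cpm in the other 8 SNF libraries. In ST replicate 3 mitochondrial genes took 15.8% (RBP4) and 19.0% (VGAT) of the counts, against 2.71% to 7.08% in the other 8 ST libraries. Its astrocyte markers summed to 20465 and 17924 cpm, the highest sum of each ST group. The part of these values in the lower levels was not tested.

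**Figure D5:**
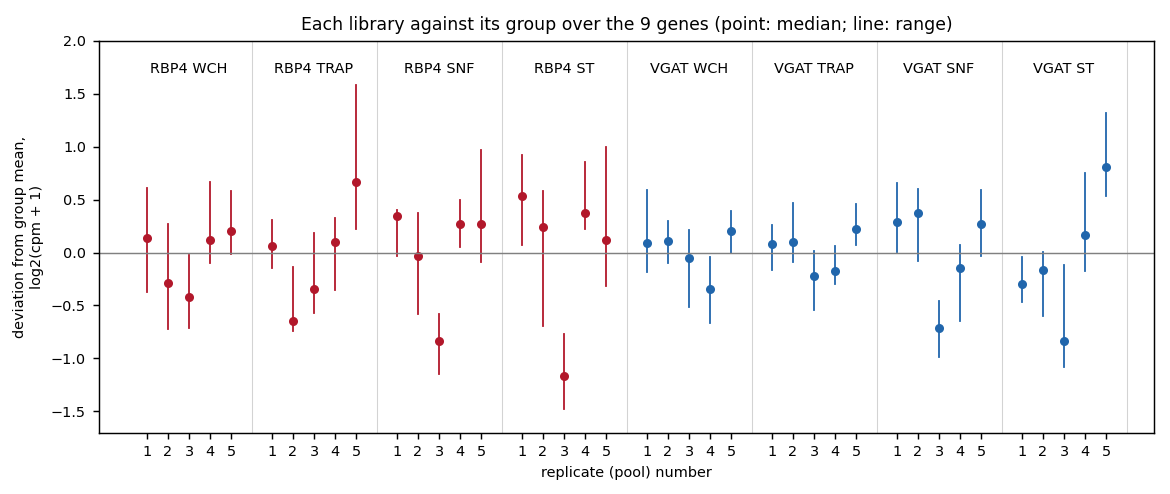
Deviation of each library from the mean of its group on the log2(cpm + 1) scale (vertical), as the median (point) and range (line) over the 9 genes, by group and replicate number. Replicate 3 lies lowest in SNF and ST of both lines, and replicate 5 lies highest in RBP4 TRAP and VGAT ST.

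Over the 40 libraries the 9 genes followed each other to different degrees. Pearson's r of log2(cpm + 1) was highest for Adora2a with Penk (0.963), both of the indirect pathway, and for Penk with Tac1 (0.959), and lowest for Ppp1r1b with Pdyn (0.381). The points share 4 fractions and 2 lines, which differ in their means, so that these values describe the groups.

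Genes most like the mean pattern of the 9, by the same measure, included Slc35d3 (r = 0.948), Serpina9 (0.943), Btbd11 (0.922), Nxph1 (0.920), Gpr6 (0.919), Pthlh (0.918), Crhbp (0.913), Kcnmb2 (0.908) and Htr1d (0.908), over 40 libraries. Slc35d3 and Gpr6 stood in the lists of direct and indirect pathway genes.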

How the data were processed

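RNA-seq of 40 libraries was used. The authors aligned reads with STAR 2.0.4b and counted them per gene with featureCounts 1.4.5, and the counts were deposited as whole numbers without normalization. The deposited CPM and RPKM values, made by the authors from each library's total and gene length, were compared with values recomputed from the counts and not used further. The sources used here do not state the strand setting, so reads of Penk and A830012C17Rik, and of Ppp1r1b and 1700003D09Rik, cannot be told apart where they overlap. Groups and replicate numbers came from the labels; equal numbers in a line mark 1 pool. The 9 genes and all lists were chosen with earlier results of these data known, and the genes named for SNF were chosen after their values were seen.

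Here 390 mitochondrial, rRNA and tRNA genes were left out, and library sizes were the remaining totals (8950847 to 21976631 counts). Differences were tested with edgeR 4.0.16 in R 4.3.3 by the quasi-likelihood functions glmQLFit and glmQLFTest. The only model term was the group, as in the authors' models, and p-values were adjusted after Benjamini and Hochberg. Comparisons within a line used its 20 libraries and genes that reached 0.5 cpm in 3 or more of them, those between lines the 30 WCH, TRAP and ST libraries with the same limit on TRAP and ST, and SNF between lines all 40. Local and somatic candidates followed the study's definitions, with both steps called (adjusted p up to 0.05). Same-numbered libraries of 1 pool deviated together to different degrees. The mean correlation (RBP4 and VGAT lines) was 0.274 and 0.308 for WCH with TRAP and 0.393 and 0.476 for SNF with ST. It was 0.114 and 0.127 for WCH with ST and -0.00927 and 0.0609 for TRAP with ST. The pool was also fitted as a block. Replicates are pools of mice, and p-values measure the spread between pools. Lists were direct pathway, indirect pathway, shared striatal signalling, striatal transcription factors, receptors, peptide processing, RGS, pan-GABAergic, cortical interneuron, cholinergic, glutamatergic, dopaminergic, astrocyte, oligodendrocyte, microglia and endothelial genes, and the text names the 2 genes of each with the smallest p in VGAT TRAP against WCH, the receptors, every gene with an opposite call, and the 10 genes most like the mean of the 9. Some items that this rule or a list would name are not reported here. Gpr52 and Pde2a were not analysed here. Figures used matplotlib 3.10.9. In simulated counts for VGAT TRAP against WCH (16990 genes), 147 of 200 genes changed 2-fold were recovered with 8 false calls, and for RBP4 against VGAT in TRAP (16898 genes) 115 of 200 with 3.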

Additional observations from a re-analysis of the deposited data

Results flagged for a closer look

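Among 72 sets of 5 libraries, 7 held a library far from the other 4, by a gap of more than 0.71 of the range, a size that chance reaches in about 1 set in 20. Penk in RBP4 SNF replicate 3 (316.3 cpm) and Drd2 in the same library (2.542 cpm) were low, as was Drd1 in RBP4 ST replicate 3 (6.59 cpm). High values were those of Drd2 (2.185 cpm), Rgs9 (23.64 cpm) and Pde10a (61.23 cpm) in RBP4 TRAP replicate 5 and of Adora2a (26.0 cpm) in VGAT ST replicate 5. The 7 values fall in 4 libraries, and replicate 3 and replicate 5 are named beside the results they touch.

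The line difference in ST departed from that in TRAP by the interaction test for all 9 genes: 3.09 for Tac1, 3.10 for Penk, 2.07 for Pdyn, 2.10 for Drd1, 3.28 for Drd2, 3.79 for Adora2a, 3.61 for Ppp1r1b, 2.76 for Rgs9 and 2.30 for Pde10a on the log2 scale.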

How the results depend on the processing

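Of 1845 values of single genes recomputed under other settings, 1713 kept their direction and their side of the threshold, 47 passed it anew, 47 no longer passed it and 38, none of them called, took the other sign. Values of RBP4 against VGAT in WCH and in SNF were not among them. No call or direction changed for VGAT TRAP against WCH, VGAT ST against TRAP, RBP4 against VGAT in TRAP or the interaction. The fits without RBP4 SNF, VGAT SNF or RBP4 ST replicate 3, or without RBP4 TRAP or VGAT ST replicate 5, were chosen after seeing the data. Where values moved, the cause was not tested. Genes near 1 cpm, such as Adora2a and Drd2 in RBP4 TRAP, rest on few counts.

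In RBP4 SNF against WCH the count of higher genes was 6 with DESeq2, 5 with DESeq2 size factors in edgeR, 4 with TMM and 4 with the replicate block, against 2, and that of lower genes was 1, 0 and 1 with the first 3 settings and 0 to 3 with libraries left out, against 3. In RBP4 ST against SNF the lower count was 1 with no genes left out, 5 with the block and 1 to 3 with libraries left out, against 2. In VGAT ST against SNF, against 0, the higher count was 1 with the likelihood ratio test, with no genes left out and with the block and 0 to 1 with libraries left out, and the lower count 1 with DESeq2, its size factors, TMM and the block and 0 to 1 with libraries left out. In RBP4 against VGAT in ST the lower count was 4 with the likelihood ratio test, 4 with the block, which added Tac1 (-1.31) and Drd1 (-1.03), and 0 to 2 with libraries left out, against 2; there equal numbers do not mark a shared pool. Beyond these and the calls given beside the results, the replicate block changed no call.

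Opposite signs were as follows. In RBP4 ST against SNF, Ppp1r1b had 0.0763 with no genes left out and -0.29 to 0.0383 with pools or libraries left out. In RBP4 ST against TRAP, Ppp1r1b had -0.0565 with no genes left out, -0.0955 with the block and -0.20 to 0.191 with pools or libraries left out, and Rgs9 had 0.0484 with DESeq2, 0.0495 with its size factors, 0.0238 with the block and -0.42 to 0.63 with pools or libraries left out. In VGAT ST against SNF, Pdyn had -0.17 with DESeq2, -0.17 with its size factors, -0.13 with TMM, -0.0158 with the block and -0.16 to 0.157 with pools or libraries left out. Pde10a had -0.14 with DESeq2, -0.14 with its size factors, -0.10 with TMM and -0.21 to 0.13 with pools or libraries left out. Drd2 had 0.00542 with the likelihood ratio test, 0.22 with no genes left out, 0.00306 with all 40 libraries in 1 fit and -0.55 to 0.18 with pools or libraries left out. Penk had -0.0790 to 0.55 and Rgs9 -0.24 to 0.28 with pools or libraries left out.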
